A study of Homo sapiens with 8 samples.

Results

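SPINK5 and 6 kallikrein protease genes, KLK5, KLK6, KLK7, KLK8, KLK10 and KLK11, were followed by their gene symbols through 8 RNA sequencing tables of BEAS-2B cells. All 7 symbols were found among the 26485 genes listed. They were chosen by measured values of these libraries, since low levels of SPINK5 and of kallikrein genes with LY96 siRNA under house dust mite (HDM) extract were already known. That contrast is therefore given for them as a description, without a test. BEAS-2B is an established line of virus-immortalised human bronchial epithelial cells. LY96 encodes MD-2, the partner of the receptor TLR4 in lipopolysaccharide binding, and the study asked how its suppression alters the response to HDM, an airborne allergen mixture. There were 3 libraries of cells given LY96 siRNA and HDM, 3 of cells given control siRNA and HDM, 1 of cells given LY96 siRNA and PBS, and 1 of cells given control siRNA and PBS. All cells were switched from BEGM to BEBM medium 24 h before stimulation and were harvested 24 h after it. The labels do not say whether same-group libraries are separate cultures, so a p-value here reflects library-to-library spread that could be technical. The HDM dose and the siRNA sequences are not stated in the labels.

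SPINK5 encodes LEKTI, a secreted inhibitor built of many Kazal-type domains, and its inherited loss causes the skin barrier disease Netherton syndrome. Tissue kallikreins are secreted serine proteases made as inactive precursors. In the outer layers of stratified epithelium they form a cascade, in which the trypsin-like KLK5 activates itself and the chymotrypsin-like KLK7, and the active enzymes cut the desmosomal adhesion proteins that hold cornified cells together. LEKTI restrains KLK5 and KLK7 in that setting, and KLK5 can also cleave the receptor PAR2. Airway epithelium is not cornified, but airway basal cells and lines derived from them can take on squamous features in culture.

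SPINK5 lies on chromosome 5 (148025683 to 148137289, plus strand, GENCODE v29 on GRCh38), far from the kallikrein genes. The 6 kallikrein genes lie in one cluster on the minus strand of chromosome 19, with KLK9 among them, from KLK5 (50943303 to 50953093) to KLK11 (51022216 to 51028039). RefSeq promoter entries on GRCh38.p14 existed for 6 of the 7 genes: SPINK5, KLK5, KLK6, KLK7, KLK10 and KLK11. The windows of the inhibitor gene and of KLK7 and KLK10, the most abundant kallikrein genes under HDM, are shown because these genes on 2 chromosomes had low levels in the same libraries. The SPINK5 window lies inside the GENCODE span of the gene, because the RefSeq start is downstream of the GENCODE one. Each window holds the 250 bases before the first listed RefSeq start, 5′ to 3′ on the gene's strand, and capitals mark matches to a TATA box or a GC box.
SPINK5 (chr5:148063730-148063979, plus strand): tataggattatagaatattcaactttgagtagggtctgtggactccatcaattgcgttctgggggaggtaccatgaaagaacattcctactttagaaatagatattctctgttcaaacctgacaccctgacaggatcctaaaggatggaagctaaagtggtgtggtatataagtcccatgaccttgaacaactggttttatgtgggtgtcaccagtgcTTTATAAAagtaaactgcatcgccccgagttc
KLK7 (chr19:50983918-50984167, minus strand): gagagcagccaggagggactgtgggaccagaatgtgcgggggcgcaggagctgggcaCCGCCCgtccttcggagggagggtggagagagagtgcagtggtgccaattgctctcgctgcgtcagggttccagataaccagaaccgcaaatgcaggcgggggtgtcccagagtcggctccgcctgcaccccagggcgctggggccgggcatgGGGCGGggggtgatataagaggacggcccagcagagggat
KLK10 (chr19:51019862-51020111, minus strand): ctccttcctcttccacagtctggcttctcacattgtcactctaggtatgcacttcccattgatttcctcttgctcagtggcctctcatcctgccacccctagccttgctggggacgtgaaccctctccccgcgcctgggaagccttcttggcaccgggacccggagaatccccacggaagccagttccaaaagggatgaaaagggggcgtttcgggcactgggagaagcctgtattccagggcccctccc

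The capitals in the SPINK5 window are a TATA box, TATAAA, that starts 30 bases before the start, overlapped by its reverse-strand match 32 bases before the start. Of 27305 promoter windows of the same length, 11.1% held TATAAA on either strand. The KLK7 window held the GC box letters GGGCGG 40 bases before the start and their reverse complement 193 bases before it, and 42.3% of the 27305 windows held such a match. KLK6 held 3 GC boxes, and KLK5 and KLK10 held no match to either motif in the first listed window. KLK11 held none in its first listed window and 3 in the window of its second RefSeq start. The AP-1 motif TGANTCA, found in 6.60% of the 27305 windows on either strand, was not found in any window of the 6 genes. These matches describe the letters of the windows only.

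Levels are given in FPKM, a read-derived abundance corrected for transcript length and library size. The deposited tables name no unit, and FPKM was inferred from their values, whose totals ranged from 329777 to 340328 FPKM per library. Read depth is unknown, so no counting interval can be given. LY96 itself was listed at 0 FPKM in all 8 libraries, so its suppression could not be checked and the siRNA groups are named by their labels. All 9 airway epithelial markers were detected in every library, among them KRT5 at 332 to 447 FPKM and EPCAM at 9.52 to 13.5 FPKM. The leukocyte markers CD68 and CD74 were detected, but PTPRC and CD3E were at 0 in all 8 libraries, as were the fibroblast marker DCN and the endothelial marker PECAM1. Other markers of those lists were detected in every library. PDGFRB was at 9.39 to 16.1 FPKM and COL1A1 at 5.72 to 10.2 FPKM, near the level of EPCAM, and the endothelial marker VWF at 0.0743 to 0.316 FPKM. The summed level of 5 keratinocyte markers was 82.0 to 126 FPKM in the LY96 siRNA HDM libraries, 176 to 202 FPKM in the control siRNA HDM libraries, 151 FPKM in the LY96 siRNA PBS library and 209 FPKM in the control siRNA PBS library. Ribosomal RNA (RNA18S5 plus RNA28S5) took 1.03% to 1.31% of the total in the LY96 siRNA HDM libraries, 0.475% to 0.824% in the control siRNA HDM libraries, 0.826% in the LY96 siRNA PBS library and 0.770% in the control siRNA PBS library. The sum of 9 airway epithelial markers was 2336 to 2516 FPKM in the LY96 siRNA HDM libraries, 2539 to 2657 FPKM in the control siRNA HDM libraries, 2657 FPKM in the LY96 siRNA PBS library and 2583 FPKM in the control siRNA PBS library. The sum of 7 fibroblast and mesenchymal markers, led by VIM, was 349.9 to 361 FPKM in the LY96 siRNA HDM libraries, 329 to 339 FPKM in the control siRNA HDM libraries, 376 FPKM in the LY96 siRNA PBS library and 379 FPKM in the control siRNA PBS library. The sum of 6 leukocyte markers was 27.98 to 31.9 FPKM in the LY96 siRNA HDM libraries, 25.8 to 27.5 FPKM in the control siRNA HDM libraries, 18.5 FPKM in the LY96 siRNA PBS library and 15.9 FPKM in the control siRNA PBS library. The ribosomal share and these 4 marker sums all separate the HDM groups, as the genes below do, and their part in the differences was not tested.

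SPINK5, the inhibitor, was the most abundant of the 7 genes in every group. It was at 10.9, 13.1 and 9.14 FPKM in LY96 siRNA HDM libraries 1, 2 and 3, against 28.4, 24.5 and 28.7 FPKM in control siRNA HDM libraries 1, 2 and 3. It was at 12.3 FPKM in the LY96 siRNA PBS library and 33.4 FPKM in the control siRNA PBS library. Every LY96 siRNA library thus lay below every control siRNA library, whichever the stimulus. The group means under HDM were 11.1 ± 2.01 FPKM with LY96 siRNA and 27.2 ± 2.31 FPKM with control siRNA (SD, n = 3 each), a ratio of 0.407, and the ratio of the PBS libraries was 0.370. In RNA of whole cultures, fewer cells holding a transcript and less of it per cell cannot be told apart.

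**Figure D1:**
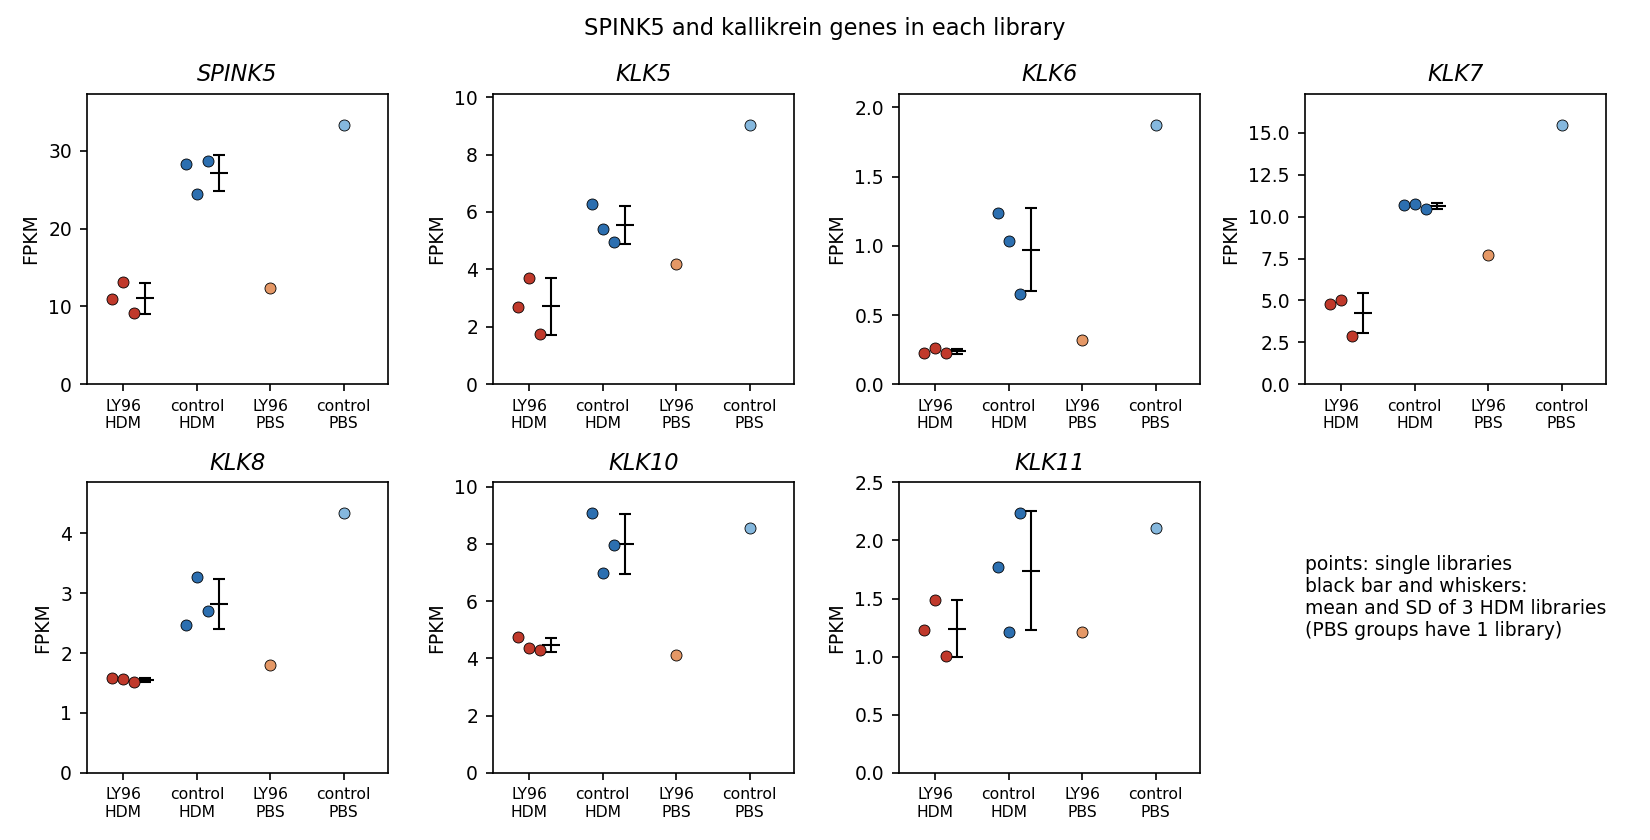
FPKM (y axes, from 0) of SPINK5 and the 6 kallikrein genes in each of the 8 libraries (points), by group, with the mean and SD of the 3 HDM libraries of each siRNA (black bars). SPINK5 sits between 9.14 and 13.1 FPKM in the 4 LY96 siRNA libraries and between 24.5 and 33.4 FPKM in the 4 control siRNA libraries.

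KLK7, the chymotrypsin-like protease that cuts corneodesmosin, was at 4.81, 5.04 and 2.88 FPKM in LY96 siRNA HDM libraries 1, 2 and 3, against 10.7, 10.8 and 10.5 FPKM in the control siRNA HDM libraries. It was at 7.73 FPKM in the LY96 siRNA PBS library and 15.5 FPKM in the control siRNA PBS library. The HDM groups did not overlap, and within each siRNA all 3 HDM libraries lay below the PBS library. KLK5, the trypsin-like enzyme upstream of KLK7, was at 2.71, 3.71 and 1.74 FPKM in the LY96 siRNA HDM libraries, against 6.28, 5.41 and 4.96 FPKM in the control siRNA HDM libraries. It was at 4.20 FPKM in the LY96 siRNA PBS library and 9.04 FPKM in the control siRNA PBS library. The KLK5 groups did not overlap either, and for both genes LY96 siRNA HDM library 3 was lowest and the control siRNA PBS library highest.

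KLK8, a trypsin-like protease also known as neuropsin, was at 1.58, 1.57 and 1.52 FPKM in the LY96 siRNA HDM libraries, against 2.47, 3.28 and 2.71 FPKM in the control siRNA HDM libraries. It was at 1.81 FPKM in the LY96 siRNA PBS library and 4.34 FPKM in the control siRNA PBS library. The LY96 siRNA HDM libraries varied little for KLK8 (SD 0.0330 FPKM, n = 3), and the groups did not overlap. In GENCODE v29, KLK8 shares 747 of its 1865 exonic bases with AC011473.4, an overlapping protein-coding gene on the same strand, so its values depend on how reads were divided. KLK10, first described as a gene of normal epithelial cells, was at 4.73, 4.36 and 4.30 FPKM in the LY96 siRNA HDM libraries, against 9.07, 6.98 and 7.95 FPKM in the control siRNA HDM libraries. It was at 4.13 FPKM in the LY96 siRNA PBS library and 8.56 FPKM in the control siRNA PBS library. KLK10 thus differed by siRNA label while its HDM and PBS levels were close within each siRNA. KLK5, KLK6 and KLK10 overlap antisense genes by 202, 401 and 240 exonic bases, and whether the counting used strand is not given in the sources used here.

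KLK6 and KLK11 were the lowest of the 7. KLK11, another secreted serine protease, was at 1.23, 1.49 and 1.00 FPKM in the LY96 siRNA HDM libraries, against 1.77, 1.21 and 2.23 FPKM in the control siRNA HDM libraries, and it was the 1 gene of the 7 whose HDM groups overlapped. It was at 1.21 FPKM in the LY96 siRNA PBS library and 2.10 FPKM in the control siRNA PBS library. KLK6, a trypsin-like protease also known as neurosin, was at 0.223, 0.261 and 0.226 FPKM in the LY96 siRNA HDM libraries, against 1.23, 1.04 and 0.649 FPKM in the control siRNA HDM libraries. It was at 0.320 FPKM in the LY96 siRNA PBS library and 1.88 FPKM in the control siRNA PBS library. KLK6 had a mean of 0.728 FPKM over 8 libraries, below the level of 1 FPKM required for testing, and only the control siRNA PBS library and 2 control siRNA HDM libraries exceeded 1 FPKM. The other 6 genes passed that level. KLK6 was therefore left out of the tests, although its HDM groups did not overlap, and a fold between such low values is uncertain. No gene of the 7 was below 1 FPKM in every group.

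For 6 of the 7 genes the 3 LY96 siRNA HDM libraries all lay below the 3 control siRNA HDM libraries, beside 21.8% of the 12598 genes tested for which the same held. That contrast led to the choice of these genes, so nothing is read from the count. The ratio of LY96 siRNA to control siRNA means under HDM ranged from 0.243 for KLK6 to 0.714 for KLK11, with 0.399 for KLK7, 0.490 for KLK5, 0.552 for KLK8 and 0.558 for KLK10. On the log2(FPKM + 1) scale the differences were -1.23 for SPINK5, -1.18 for KLK7, -0.85 for KLK5, -0.71 for KLK10, -0.57 for KLK8 and -0.28 for KLK11. Counted from the lowest difference of 12598 genes, SPINK5 ranked 9, KLK7 12, KLK5 33, KLK10 55, KLK8 90 and KLK11 486. The ranks come from the contrast that led to the choice of these genes, so nothing is read from them either. The log2(FPKM + 1) scale understates changes of low genes.

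**Figure D2:**
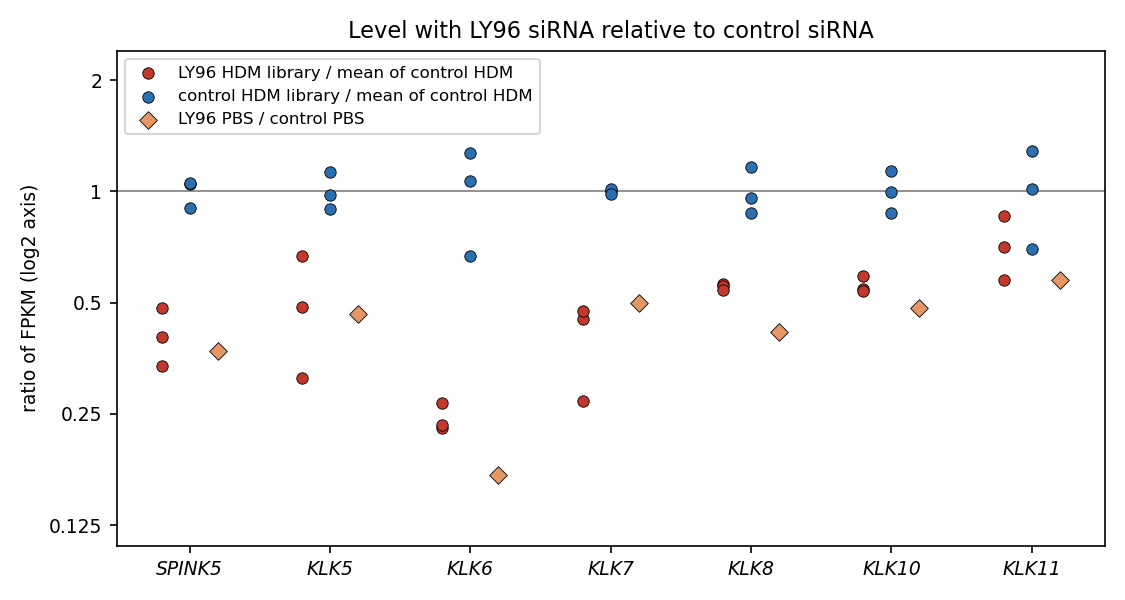
Ratio of FPKM (y axis, log2 scale) for each of the 7 genes: each LY96 siRNA HDM library (red) and each control siRNA HDM library (blue) over the control siRNA HDM mean, and the LY96 siRNA PBS library over the control siRNA PBS library (diamonds). The PBS ratios run from 0.170 for KLK6 to 0.575 for KLK11 and are all below 1.

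The PBS libraries, which are not in the contrast that chose the genes, gave the same direction for all 7, and 7015 of the 12604 genes tested were lower in the LY96 siRNA PBS library. The ratio of the LY96 siRNA PBS library to the control siRNA PBS library was 0.370 for SPINK5, 0.465 for KLK5, 0.170 for KLK6, 0.499 for KLK7, 0.416 for KLK8, 0.482 for KLK10 and 0.575 for KLK11. In limma, with the spread taken from the HDM libraries and the single PBS libraries assumed to vary like them, 2 of the 6 tested genes were called lower at an adjusted p below 0.05, beside 0.214% of 12604 genes. KLK10 fell by log2 0.90 ± 0.14 SE (adjusted p = 0.0403) and KLK8 fell by log2 0.93 ± 0.15 SE (adjusted p = 0.0405), each in 1 LY96 siRNA library against 1 control siRNA library. The spread comes from the HDM libraries of the contrast that chose the genes. The adjusted p-values under PBS, and those of HDM against PBS below, are therefore not independent of that choice. Both calls are near the threshold. Their limma adjusted p ranged over the alternatives from 0.0258 to 0.135 for KLK10 and from 0.0347 to 0.111 for KLK8, and each call was lost without any single LY96 siRNA HDM library and without control siRNA HDM replicate 3, and KLK8's also without control siRNA HDM replicate 1 (adjusted p = 0.0517). Both calls were also lost without the low-value filter, at a minimum mean of 0.3 FPKM and without trend and robust moderation.

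The other tested genes did not pass in the PBS libraries. SPINK5 had a log2 difference of -1.37 ± 0.22 SE (limma adjusted p = 0.0798), KLK5 of -0.95 ± 0.35 SE (adjusted p = 0.276), KLK7 of -0.92 ± 0.30 SE (adjusted p = 0.227) and KLK11 of -0.49 ± 0.25 SE (adjusted p = 0.374). SPINK5 had an adjusted p of 0.0267 without LY96 siRNA HDM replicate 2 and 0.0228 without LY96 siRNA HDM replicate 3, and KLK7 of 0.00802 without LY96 siRNA HDM replicate 3. Over all alternatives these adjusted p-values ran from 0.0228 to 0.130 for SPINK5 and from 0.00802 to 0.314 for KLK7. Of all genes, 59 of 12604 (0.468%) were called in the PBS libraries, 32 of them higher and 27 lower, against 56 higher and 27 lower after median-ratio scaling. KLK6 had a log2 difference of -1.12 ± 0.20 SE when the level was lowered to a mean of 0.3 FPKM (limma adjusted p = 0.0814) or dropped (0.124).

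With HDM against PBS and both siRNAs weighted equally, limma called 0 of the 6 tested genes, beside 3.50% of 12604 genes called lower, 4.86% called higher and 8.36% called in either direction. At an unadjusted p below 0.05 there were 3 of 6, namely KLK5, KLK7 and KLK8, all lower with HDM, beside 2724 of the 12604 genes (21.6%). KLK7 had a log2 difference of -0.63 ± 0.17 SE (limma adjusted p = 0.0896), KLK8 of -0.31 ± 0.09 SE (adjusted p = 0.0629), KLK5 of -0.57 ± 0.20 SE (adjusted p = 0.174) and SPINK5 of -0.22 ± 0.13 SE (adjusted p = 0.399). KLK10 was at log2 -0.0013 ± 0.083 SE (adjusted p = 0.995) and KLK11 at -0.09 ± 0.14 SE (adjusted p = 0.780). Whether KLK7 was called depended on 1 library. Without LY96 siRNA HDM replicate 3 its difference was -0.53, close to the value with that library, with an adjusted p of 3.96e-04, within a range over all alternatives of 3.96e-04 to 0.169. That library had the lowest SPINK5, KLK5, KLK7 and KLK11 of all 8, together with the highest ribosomal RNA share at 1.31%. KLK5 was called without LY96 siRNA HDM replicate 2 (log2 -0.66, adjusted p = 0.0276, range 0.0276 to 0.282), and KLK8 without control siRNA HDM replicate 2 (log2 -0.35, adjusted p = 0.0316) and after quantile normalization (adjusted p = 0.0477, range 0.0316 to 0.119).

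Within LY96 siRNA, the ratio of the HDM mean to the PBS library was 0.549 for KLK7, 0.647 for KLK5, 0.741 for KLK6, 0.861 for KLK8, 0.898 for SPINK5, 1.03 for KLK11 and 1.08 for KLK10. Within control siRNA it was 0.519 for KLK6, 0.614 for KLK5, 0.649 for KLK8, 0.687 for KLK7, 0.814 for SPINK5, 0.827 for KLK11 and 0.935 for KLK10. All 3 HDM libraries lay below the PBS library for 4 of the 7 genes within LY96 siRNA, beside 27.7% of the 12604 genes tested, and for 5 of the 7 within control siRNA, beside 29.2%. KLK5, KLK6, KLK7 and KLK8 did so with both siRNAs and SPINK5 with control siRNA. With 1 PBS library for each siRNA, and with the HDM levels tied to the contrast that chose the genes, these ratios carry no test.

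The order of KLK5 and KLK10 differed between the PBS libraries and the HDM means, with only 1 PBS library for each siRNA. In the PBS libraries KLK5 was above KLK10 at 4.20 against 4.13 FPKM with LY96 siRNA and 9.04 against 8.56 FPKM with control siRNA. These gaps are smaller than the SD of KLK5 under HDM (0.988 FPKM with LY96 siRNA and 0.669 FPKM with control siRNA), so the PBS order is uncertain. Under HDM the mean of KLK5 lay below that of KLK10 with both siRNAs. KLK7 lay below KLK10 only in LY96 siRNA HDM library 3. KLK7 exceeded KLK10 by a ratio of 1.87 in the LY96 siRNA PBS library and 1.81 in the control siRNA PBS library. Under HDM the ratio of KLK7 to KLK10 was 1.02, 1.16 and 0.671 in the LY96 siRNA libraries and 1.18, 1.55 and 1.32 in the control siRNA libraries, so all 6 HDM libraries lay below both PBS libraries. In the LY96 siRNA HDM group the ranges of KLK7 (2.88 to 5.04 FPKM) and KLK10 (4.30 to 4.73 FPKM) overlapped, as did those of KLK7 and KLK5 (1.74 to 3.71 FPKM). In the control siRNA HDM group SPINK5, KLK7, KLK10, KLK5, KLK8 and KLK11 stood in that order with no overlap between neighbours down to KLK8 and KLK11, and the ranges of KLK11 and KLK6 overlapped.

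The balance of proteases to inhibitor also differed by library. The FPKM sum of the 6 kallikreins divided by SPINK5 was 1.40, 1.25 and 1.28 in the LY96 siRNA HDM libraries, against 1.11, 1.17 and 1.01 in the control siRNA HDM libraries. It was 1.57 in the LY96 siRNA PBS library and 1.24 in the control siRNA PBS library. Under HDM the mean was 1.31 ± 0.078 with LY96 siRNA and 1.10 ± 0.080 with control siRNA (SD, n = 3 each), and the HDM groups did not overlap. For KLK7 alone over SPINK5 the HDM groups overlapped, with 0.316 to 0.440 with LY96 siRNA and 0.365 to 0.440 with control siRNA. For KLK5 alone over SPINK5 the HDM groups overlapped too, with 0.190 to 0.282 with LY96 siRNA and 0.173 to 0.221 with control siRNA. These ratios were formed after the values were seen and come from RNA levels, and no test was run on them.

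**Figure D3:**
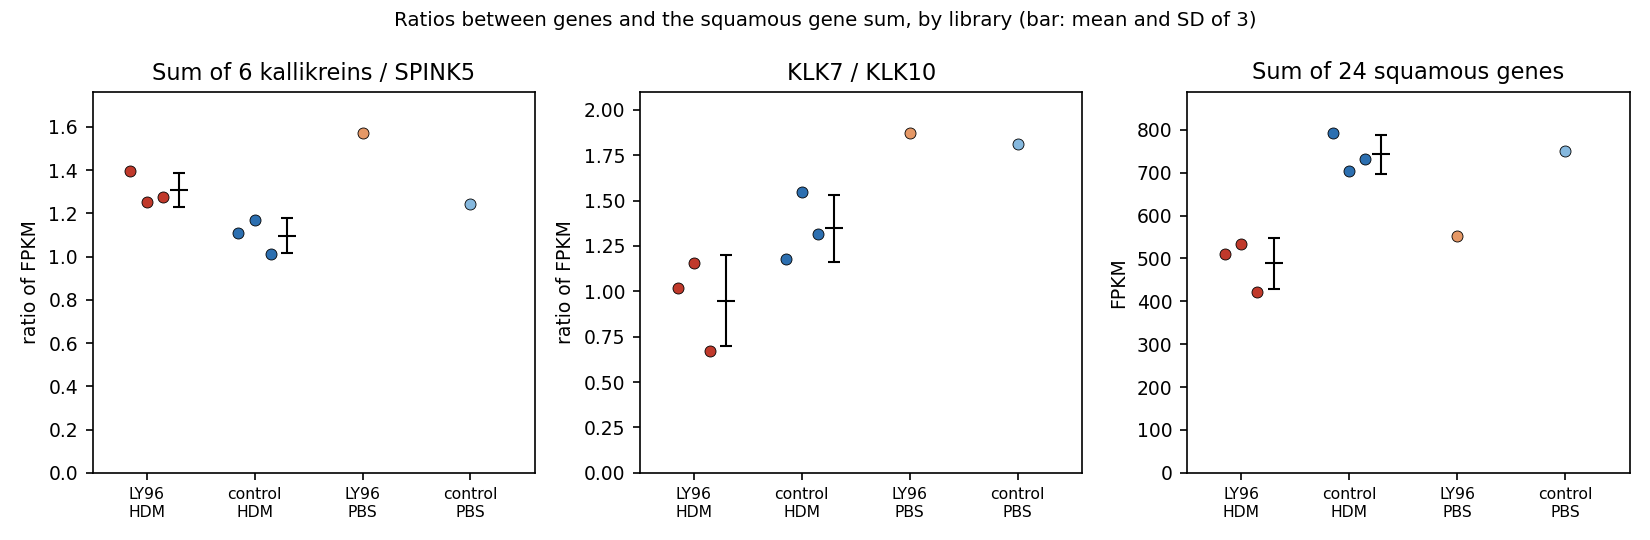
Ratio of the summed kallikrein FPKM to SPINK5 FPKM (left), ratio of KLK7 to KLK10 (middle) and FPKM sum of 24 squamous differentiation genes (right), for each library (points) by group, with the mean and SD of 3 HDM libraries. The protease to inhibitor ratio sits at 1.25 to 1.40 in the LY96 siRNA HDM libraries and at 1.01 to 1.17 in the control siRNA HDM libraries.

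Over the 8 libraries the log2(FPKM + 1) values of the 7 genes correlated pairwise at Pearson's r of 0.634 to 0.971 (median 0.882, 21 pairs). The highest was KLK5 with KLK7 and the lowest KLK6 with KLK11. The points are 4 groups and not 8 independent samples, so these values only describe likeness. Outside the 7 genes, the 5 genes most like SPINK5 among 12598 were LCE3E (r = 0.998), a late cornified envelope gene, SDHC (0.994), a succinate dehydrogenase subunit gene, KRTDAP (0.990), a keratinocyte differentiation gene, ARHGAP19 (0.989) and POF1B (0.985). The 5 most like KLK7 were DMKN (0.997), the dermokine gene of stratified epithelium, RSRP1 (0.993), GRHL1 (0.991), an epithelial transcription factor gene, CASP14 (0.989), the caspase of cornification, and FAM171A2 (0.987).

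Of the 15 kallikrein genes of the chromosome 19 cluster, KLK15, KLK3, KLK2 and KLK4 were listed at 0 in all 8 libraries, and KLK1 reached 0.511 FPKM at most. Beyond the 6 kallikreins described, KLK9 was at up to 1.07 FPKM, KLK13 at up to 0.540 FPKM, KLK12 at up to 1.67 FPKM and KLK14 at up to 2.17 FPKM. KLK12 averaged 0.741 ± 0.141 FPKM with LY96 siRNA and 1.34 ± 0.320 FPKM with control siRNA under HDM (SD, n = 3 each), a log2 difference of -0.42 ± 0.12 SE with limma adjusted p = 0.0442. That call was lost without LY96 siRNA HDM replicate 1 (0.0578), 2 (0.102) or 3 (0.118), without the low-value filter (0.0852) and without trend and robust moderation (0.0502). Without control siRNA HDM replicate 1 or 3 the mean of KLK12 was below the level for testing. KLK14, a trypsin-like protease of the skin cascade, averaged 0.711 ± 0.366 FPKM with LY96 siRNA and 1.34 ± 0.273 FPKM with control siRNA and was not called. Of the 9 other SPINK genes, 5 were listed at 0 in all 8 libraries and none exceeded 0.310 FPKM, so SPINK5 was the 1 SPINK gene at a testable level. Of 5 other protein-coding genes with a testable level within 300 kb of SPINK5 or of the KLK5 to KLK14 stretch, namely FBXO38, C19orf48, CTU1, VSIG10L and ETFB, 0 were called by limma in any of the 3 comparisons, with log2 differences from -0.20 to 0.07. These neighbours were listed after the levels of the 7 genes had been seen.

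**Figure D4:**
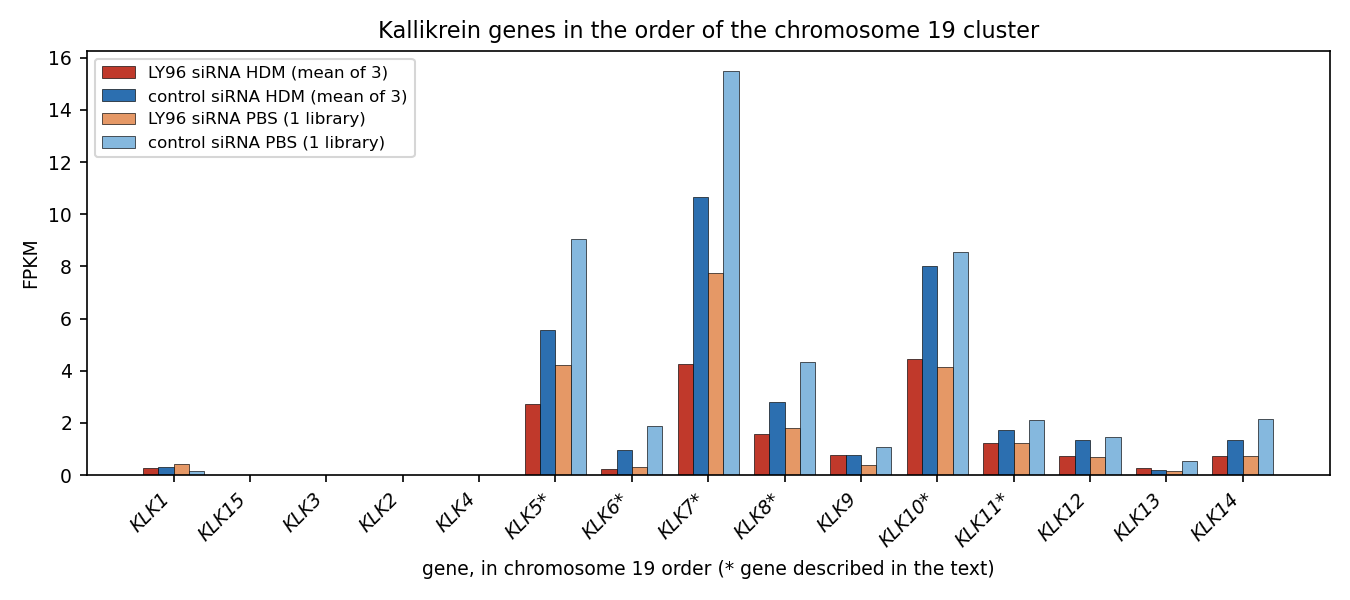
FPKM (y axis) of the 15 kallikrein genes in their order on chromosome 19, as bars for the 4 groups (mean of 3 libraries under HDM, 1 library under PBS). KLK15, KLK3, KLK2 and KLK4 are at 0, and KLK7 reaches 15.5 FPKM in the control siRNA PBS library.

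Related genes were read from a list of 86 genes of the protease cascade, its inhibitors and substrates and squamous differentiation, 48 of which were tested. The list was chosen with earlier results of these data known, so its counts and adjusted p-values, here and below, are not free of that choice. With LY96 siRNA under HDM, 25 of the 48 were lower and 3 higher by limma at an adjusted p below 0.05, beside 8.92% of all 12598 genes lower and 6.68% higher (15.6% in either direction). The median log2 difference of the 48 genes was -0.32, against -0.02 over all genes. Over all genes the split was 1124 lower and 842 higher, and 878 lower and 1071 higher after median-ratio scaling. The list count of 25 fell to 14 without control siRNA HDM replicate 1 and 16 without control siRNA HDM replicate 3. Without the 24 genes listed as squamous differentiation genes, 28 listed genes were tested, of which 12 were lower and 3 higher. Their median log2 difference was -0.17. The 12 still included CASP14, CDSN and FLG, so the 28 are not free of genes of cornified epithelium. Of the 28 calls on the whole list, 16 held under every alternative tried, 13 lower and 3 higher.

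Among substrates and receptors 4 of 8 tested genes were lower and 1 higher under HDM, beside 8.92% of all 12598 genes lower and 6.68% higher. FLG, which encodes the filament-aggregating protein filaggrin, averaged 1.24 ± 0.437 FPKM with LY96 siRNA and 4.22 ± 0.427 FPKM with control siRNA (SD, n = 3 each), a log2 difference of -1.24 ± 0.14 SE with limma adjusted p = 0.00108. CDSN, the gene of corneodesmosin, a substrate of KLK5 and KLK7, averaged 1.13 ± 0.236 FPKM with LY96 siRNA and 2.39 ± 0.540 FPKM with control siRNA (SD, n = 3 each), a log2 difference of -0.66 ± 0.13 SE with limma adjusted p = 0.0107. The desmosomal cadherin genes that were called went opposite ways, with DSC2 lower (log2 -0.54 ± 0.09 SE, adjusted p = 0.00639) and DSG2, which was also higher in the PBS libraries, higher (log2 0.20 ± 0.04 SE, adjusted p = 0.0122). DSG3 (log2 0.02) and DSC3 (log2 -0.15) were not called, and their HDM groups overlapped. DSG1, below the level for testing, averaged 0.743 FPKM with LY96 siRNA and 1.25 FPKM with control siRNA under HDM, without overlap. F2RL1, the gene of PAR2, was lower by log2 0.26 ± 0.07 SE (adjusted p = 0.0375), a call lost under 9 of 15 alternatives, among them leaving out any control siRNA HDM library or LY96 siRNA HDM replicate 2 or 3.

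Among activating and partner proteases 3 of 10 were lower and 1 higher, beside the same 8.92% and 6.68% of all genes. PRSS8, the membrane-anchored protease prostasin, averaged 11.9 ± 0.662 FPKM with LY96 siRNA and 16.9 ± 1.10 FPKM with control siRNA under HDM (SD, n = 3 each), a log2 difference of -0.47 ± 0.06 SE with limma adjusted p = 0.00129. CASP14 was lower by log2 0.55 ± 0.10 SE (adjusted p = 0.00830) and ST14, the matriptase gene, by log2 0.22 ± 0.06 SE (adjusted p = 0.0358). The ST14 call was lost under 6 of 15 alternatives, among them leaving out any control siRNA HDM library or LY96 siRNA HDM replicate 3. PLAU, the urokinase gene, was higher by log2 0.22 ± 0.03 SE (adjusted p = 0.00428). Among 8 other surface protease inhibitors 4 were lower, namely CST6, PI3, SLPI and SPINT1, and 1 was higher. The PI3, SLPI and SPINT1 calls were each lost without control siRNA HDM replicate 1 or 3, those of PI3 and SLPI also without LY96 siRNA HDM replicate 1, those of SLPI and SPINT1 also without LY96 siRNA HDM replicate 3, and that of SPINT1 also without control siRNA HDM replicate 2 or LY96 siRNA HDM replicate 2. CST6, the cystatin M/E gene, averaged 9.48 ± 0.291 FPKM with LY96 siRNA and 12.9 ± 0.950 FPKM with control siRNA (SD, n = 3 each), a log2 difference of -0.41 ± 0.06 SE with limma adjusted p = 0.00241. SERPINA1, the alpha-1 antitrypsin gene, was the higher one, at 7.13 ± 0.655 FPKM with LY96 siRNA and 4.52 ± 0.259 FPKM with control siRNA (SD, n = 3 each), a log2 difference of 0.56 ± 0.07 SE with limma adjusted p = 0.00155.

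**Figure D5:**
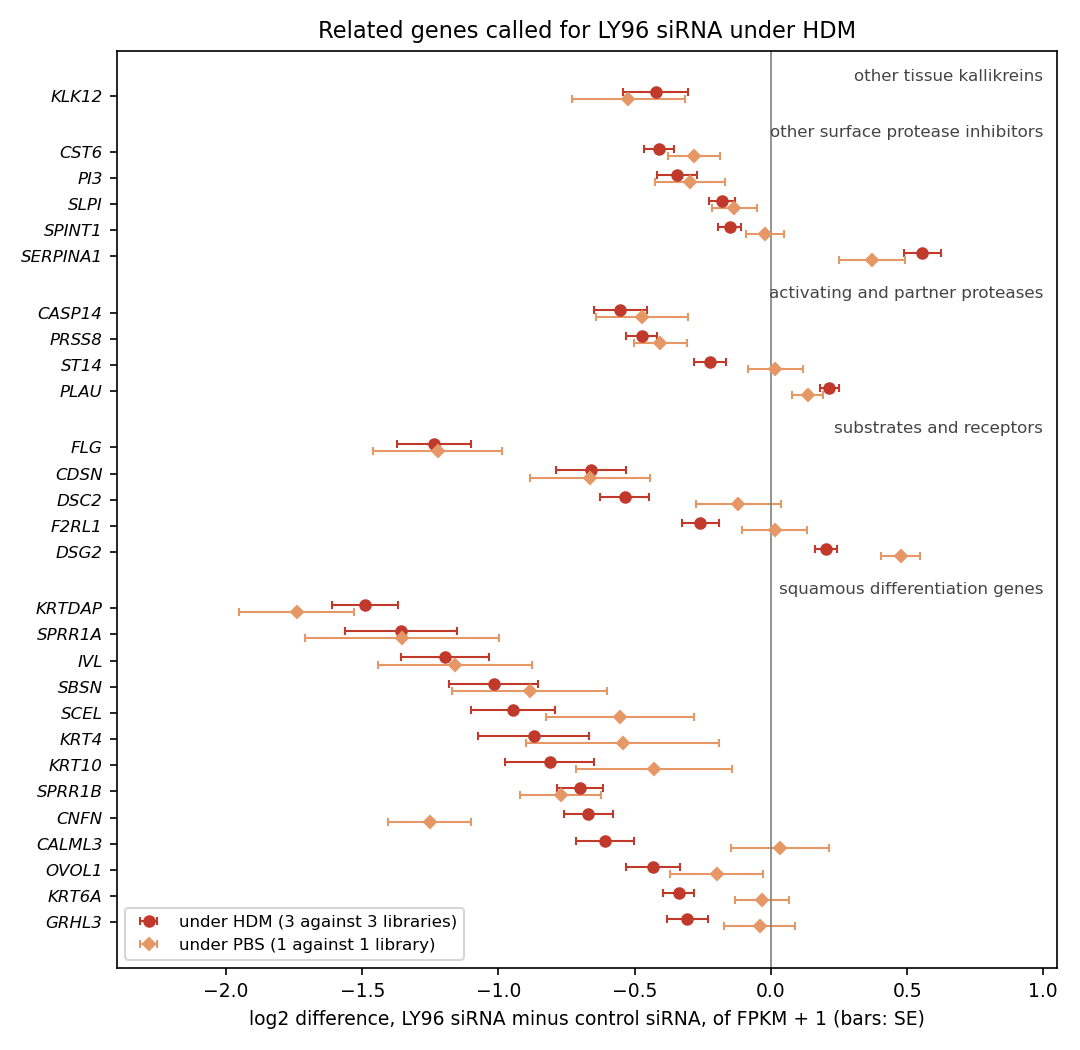
Difference between LY96 siRNA and control siRNA on the log2(FPKM + 1) scale (x axis, with SE) for the 28 listed genes called under HDM (circles, 3 against 3 libraries), with the same difference in the PBS libraries (diamonds, 1 against 1 library). FLG is at -1.24 under HDM and -1.22 under PBS, and KRTDAP at -1.49 under HDM and -1.74 under PBS.

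Of 20 tested squamous differentiation genes 13 were lower and 0 higher with LY96 siRNA under HDM by limma at an adjusted p below 0.05. Of all 12598 genes 8.92% were lower and 6.68% higher, and the median log2 difference of the 20 genes was -0.72. The summed level of all 24 listed squamous genes was 421 to 534 FPKM in the LY96 siRNA HDM libraries, against 704 to 793 FPKM in the control siRNA HDM libraries. It was 552 FPKM in the LY96 siRNA PBS library and 749 FPKM in the control siRNA PBS library. IVL, the involucrin gene of the cornified envelope, was lower by log2 1.20 ± 0.16 SE (adjusted p = 0.00386). Of the 13 calls, 6 were lost under some alternative, namely SPRR1A, KRT10, KRT4, SBSN, GRHL3 and OVOL1. The summed level was low in the same 4 libraries as SPINK5 and the kallikreins other than KLK11, and its part in their levels was not tested. In the PBS libraries KRTDAP (log2 -1.74 ± 0.21 SE, adjusted p = 0.0389) and CNFN (-1.25 ± 0.15 SE, adjusted p = 0.0181), the cornifelin gene, were lower and DSG2 (0.48 ± 0.07 SE, adjusted p = 0.0339) was higher, 3 of the 48 listed genes in all. Of all 12604 genes 0.468% were called there in either direction. No call of these 3 listed genes held under every alternative. KRTDAP had an adjusted p of 0.0807, 0.0726 and 0.0750 without control siRNA HDM replicate 1, control siRNA HDM replicate 3 and LY96 siRNA HDM replicate 3, and DSG2 of 0.0517, 0.0574 and 0.0592 without control siRNA HDM replicate 1, 2 and 3.

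HDM over both siRNAs called 6 of the 48 listed genes higher and 8 lower by limma, beside 4.86% of 12604 genes higher and 3.50% lower. The 6 were mostly inhibitors, WFDC2, PI3, SERPINA1 and SLPI, with the protease gene CTSC and the keratin gene KRT16. WFDC2, a small secreted protein with protease inhibitor domains, averaged 43.8 ± 8.30 FPKM with LY96 siRNA and HDM and 33.5 ± 1.60 FPKM with control siRNA and HDM (SD, n = 3 each), against 18.5 FPKM in the LY96 siRNA PBS library and 15.2 FPKM in the control siRNA PBS library. Its HDM effect was log2 1.14 ± 0.13 SE with limma adjusted p = 0.00612. PI3, the elafin gene, was higher by log2 0.66 ± 0.07 SE (adjusted p = 0.00261). PRSS8 (log2 -0.47 ± 0.06 SE, adjusted p = 0.00113), CTSV (-0.43 ± 0.05 SE, adjusted p = 5.32e-04), CST6, SPINT1, FLG, SCEL, CALML3 and GRHL3 were the 8 lower ones. The calls of SCEL, CALML3, GRHL3 and FLG were each lost without control siRNA HDM replicate 2 or 3. Those of SCEL, GRHL3 and FLG were also lost without LY96 siRNA HDM replicate 1, that of GRHL3 without LY96 siRNA HDM replicate 2 or 3, and that of FLG without control siRNA HDM replicate 1. The SLPI and SPINT1 calls were lost without the low-value filter (adjusted p of 0.0603 for SLPI and 0.0624 for SPINT1) and without trend and robust moderation (0.0549 for SLPI and 0.0660 for SPINT1). The count of 6 higher became 4 without trend and robust moderation. The KRT16 call was lost without any LY96 siRNA HDM library and without control siRNA HDM replicate 2 or 3. The count of 8 lower became 4 without control siRNA HDM replicate 2 or 3. For WFDC2, SERPINA1, SLPI and PI3 every HDM library lay above the PBS library of its own siRNA. For the inhibitor genes SPINT1 and CST6 all 3 HDM libraries of each siRNA lay below it. SPINK5 lay below it in 2 of 3 LY96 siRNA HDM libraries and in 3 of 3 control siRNA HDM libraries.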

How the data were processed

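RNA of 8 libraries was measured, and each was assigned to its group from its title, per the labels. The authors deposited 1 value per gene and library, read here as FPKM because the values are fractional, library totals differ and no steps of single reads appear. Alignment was by HISAT2 2.2.0 on hg38, according to the submitters' processing notes. Neither the quantifying program nor its annotation is given in the sources used here. An exact 0 can be a failed estimate.

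Tests used log2(FPKM + 1) and limma 3.58.1 (R 4.3.3; mean-variance trend, robust moderation, 4 residual degrees of freedom). Genes entered a comparison when their mean over its libraries was 1 FPKM or more. Tests were two-sided, with Benjamini-Hochberg adjustment across the genes of a comparison and a threshold of 0.05. The comparison of siRNAs under HDM was fitted on 6 libraries. The comparisons of siRNAs under PBS and of HDM with PBS were contrasts of 4 group means on 8 libraries. The fits were tested on simulated data. The simulated PBS libraries were drawn with the spread of the HDM libraries, so the assumption that both vary alike was not tested there. The 7 genes, the lists and the tests were chosen with earlier results of these data known. Genes to name were the 7, the listed genes called in any comparison (the rest of these are given by count), and the 5 genes most correlated with each of SPINK5 and KLK7. Alternatives were pseudocounts of 0.1 and 0.25, a mean of at least 0.3 FPKM or no filter, plain moderation, 2 scalings, each HDM library left out, the sample number as a block, and a model with more libraries or fewer terms. No library pair held identical values.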

Additional observations from a re-analysis of the deposited data

Results flagged for a closer look

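DSG2, a desmosomal cadherin gene of the related list, moved in opposite directions with HDM in the siRNA groups: the ratio of HDM mean to PBS library was 0.935 with LY96 siRNA, where all 3 HDM libraries lay below the PBS library, and 1.14 with control siRNA, where all 3 lay above it. DSC3, another desmosomal cadherin gene of the list, had ratios of 0.812 with LY96 siRNA and 1.09 with control siRNA. All DSC3 LY96 siRNA HDM libraries lay below the PBS library, and all DSC3 control siRNA HDM libraries lay above it. DSG3 and DSC2 did not share this pattern. Only 1 of 3 LY96 siRNA HDM libraries of DSG3 lay below the PBS library, and 2 of 3 control siRNA HDM libraries of DSC2 did. The share of all genes with such a pattern was not counted. The differences between the siRNA groups were not tested, and each ratio rests on 1 PBS library.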

How the results depend on the processing

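For the siRNA effect under HDM, leaving out single HDM libraries gave 1119 to 1369 genes called, 553 to 799 of them lower, against 1966 and 1124, and 14 to 23 listed genes lower, against 25. With the replicate block 1635 genes were called, 919 of them lower, and 24 listed genes were lower; same-numbered libraries did not deviate together (r = 0.048, -0.016 and -0.016 across 12598 genes), so the numbers were not taken as pairs. The siRNA effect under PBS, called for 59 genes (32 higher, 27 lower), changed with several choices: 2 genes (0 higher, 2 lower) without trend and robust moderation, 39 genes (16 lower) with a mean of at least 0.3 FPKM, 92 genes (59 higher) after quantile normalization, 56 higher after median-ratio scaling, and 26 to 55 genes (16 to 29 higher, 10 to 26 lower) without single HDM libraries. Listed genes called there were 0 higher and 0 lower without the low-value filter and without trend and robust moderation, and 0 to 1 higher and 1 to 4 lower without single libraries. For the HDM effect, listed genes called lower were 3 without the low-value filter and 4 to 11 without single libraries, against 8. The causes were not tested. The KLK10 difference between HDM and PBS lay between log2 -0.04 and 0.04 and changed sign among alternatives. KLK6 and KLK11 are limited by low FPKM, and each siRNA by 1 PBS library.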
